A study of Mus musculus with 2 samples.

Results

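Immediate early genes and the regulators of NF-kB were described in bone marrow-derived macrophages of the mouse, with the gene for SPP1 (osteopontin, a secreted phosphoprotein) deleted in myeloid cells or left intact. The 41 listed genes fall into 26 genes of the type that serum switches on and 15 NF-kB genes. The members are those listed genes whose mean over both libraries was at least 1 FPKM (fragments for each kilobase of gene length, relative to library size), and 35 of the 41 met this, among 10536 symbols of the table's 40017 that did. The KO library came from SPP1fl/fl-Lyz2-icre mice, in which Cre recombinase made under the myeloid gene Lyz2 acts on a floxed Spp1, and the WT library from SPP1fl/fl mice, which carry the floxed alleles and no Cre. Both cultures had grown for 5 days in medium with 20 ng/ml M-CSF (macrophage colony-stimulating factor). There was 1 library per genotype, so the spread between cultures is unknown, no test could be made, and every difference below is one between 2 libraries. How many animals fed each library is not given in the sources used here.

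Immediate early genes are transcribed within minutes of a stimulus, such as serum, growth factor or adhesion, without new protein synthesis, and most encode transcription factors or proteins that shut the signal off again. NF-kB dimers are held in the cytoplasm by IkB proteins until a kinase complex marks the IkB for destruction. The freed dimers then switch on inflammatory genes along with the genes of their own inhibitors. Macrophages use both systems when they meet microbial products, and a growth factor such as M-CSF signals through the kinases that lead to the early genes.

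The promoters of both classes were searched for elements through which such genes are known to be driven, and 4 are printed here, each with its element in capitals, as examples of the kinds found. Zfp36 holds a CArG box, which serum response factor binds. Dusp1 holds a cAMP response element, which CREB binds. Nfkbia and Bcl3 hold kB sites, which NF-kB binds. The sequences are RefSeq's on GRCm38.p6, 5′ to 3′ on the gene's strand, from 250 bases before the start site to 50 bases from it on: Zfp36 at chr7:28379179-28379478, Dusp1 at chr17:26508423-26508722, Nfkbia at chr12:55492598-55492897 and Bcl3 at chr7:19822706-19823005, all on the minus strand.
Zfp36: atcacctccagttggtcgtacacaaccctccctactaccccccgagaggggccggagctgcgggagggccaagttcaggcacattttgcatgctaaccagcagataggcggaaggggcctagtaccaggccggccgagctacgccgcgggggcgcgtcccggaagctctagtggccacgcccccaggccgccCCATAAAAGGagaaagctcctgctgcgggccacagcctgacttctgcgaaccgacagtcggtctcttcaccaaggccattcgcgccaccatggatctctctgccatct
Dusp1: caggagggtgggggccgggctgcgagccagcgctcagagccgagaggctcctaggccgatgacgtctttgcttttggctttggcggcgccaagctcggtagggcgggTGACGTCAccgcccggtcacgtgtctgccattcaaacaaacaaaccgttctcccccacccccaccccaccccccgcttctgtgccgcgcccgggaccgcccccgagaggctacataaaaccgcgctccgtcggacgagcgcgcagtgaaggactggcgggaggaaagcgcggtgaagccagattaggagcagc
Nfkbia: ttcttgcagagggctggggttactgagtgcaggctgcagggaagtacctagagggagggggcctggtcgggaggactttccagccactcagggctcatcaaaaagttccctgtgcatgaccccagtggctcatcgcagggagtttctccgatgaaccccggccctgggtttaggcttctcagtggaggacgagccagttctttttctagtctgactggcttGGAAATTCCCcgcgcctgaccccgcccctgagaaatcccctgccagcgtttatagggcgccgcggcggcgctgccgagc
Bcl3: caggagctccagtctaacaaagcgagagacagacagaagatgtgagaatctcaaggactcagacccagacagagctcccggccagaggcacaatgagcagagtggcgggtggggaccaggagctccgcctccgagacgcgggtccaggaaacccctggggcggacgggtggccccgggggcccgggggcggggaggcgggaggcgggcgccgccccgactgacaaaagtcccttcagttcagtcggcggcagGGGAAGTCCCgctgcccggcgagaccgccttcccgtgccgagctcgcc

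Counting the start-site base as 0, the CArG box of Zfp36 lies at -58 to -49, the cAMP response element of Dusp1 at -143 to -136, the kB site of Nfkbia at -29 to -20 and that of Bcl3 at 2 to 11. RefSeq windows were found for 34 of the 41 genes, 43 windows in all, since some genes have several starts. A CArG box stood in 6 of the 28 windows of serum-type genes (21.4%), from Zfp36, Dusp5 and 4 overlapping or nearby starts of Egr2. None of the 15 windows of NF-kB genes held one, and 1.63% of all 32851 windows of the same length did. By gene, 3 of 22 serum-type genes held a CArG box (13.6%), and of these Zfp36 alone passed the filter. Several Egr2 windows hold the same box, so the count by window takes it more than once. A kB site stood in 9 of 15 NF-kB windows (60%), from 7 of 12 genes, among them Rel, Nfkb2, Nfkbie, Tnfaip3 and Tnip1. It stood in 6 of 28 serum-type windows (21.4%) and in 4.51% of all windows. The cAMP response element (TGACGTCA) stood in 3 of 28 serum-type windows and no NF-kB window, against 1.79% of all. A loose form of the AP-1 site that allows any middle base (TGANTCA) stood in 1 of 28 serum-type and 3 of 15 NF-kB windows, against 7.81% of all. The matches read TGATTCA in Zfp36l1, TGACTCA in Tnfaip3, TGAGTCA in Nfkbie and TGAATCA in Nfkb2. The interferon-stimulated response element (GAAANNGAAA), looked for because interferon genes differed between these libraries, stood in 1 window of the 43, that of Fosl2, against 3.44% of all. Both strands were searched, and a match is only a run of letters.

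Serum-type genes were also shorter than most and held more ATTTA, the pentamer of the AU-rich elements that mark mRNAs for fast decay. In GENCODE M21, the 20 serum-type members had a median gene span of 4093 bp and 3 exons, the 15 NF-kB members 14748 bp and 9 exons, and all 9725 protein-coding symbols past the filter 23949 bp and 9 exons. At least 1 ATTTA lay in the 3′ untranslated region of 18 of 19 serum-type members (94.7%). It did in 9 of 15 NF-kB members (60%) and in 67.9% of coding symbols. These shares cover only symbols whose chosen transcript has such a region annotated, which leaves out Myc. Per kilobase of that region the median was 2.53 ATTTA in serum-type members, 2.21 in NF-kB members and 1.30 over all coding symbols. These are features of the annotation and are the same for both genotypes.

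Spp1 itself stood at 11.3 FPKM in the KO library and 4006 FPKM in the WT library, and Lyz2 at 13539 FPKM in KO cells against 29499 in WT cells. All 9 macrophage markers looked at passed the filter, 4 higher and 5 lower in KO. Of the 9, 3 (33.3%) differed by 1.2-fold or more, where 16.7% of all symbols did. These were Fcgr1, an antibody receptor gene, at 190.2 FPKM in KO cells against 99.2 in WT cells, the mannose receptor gene Mrc1, at 63.0 FPKM in KO cells against 76.3 in WT cells, and Lyz2. The M-CSF receptor gene Csf1r was at 851.8 FPKM in KO cells against 834.7 FPKM in WT cells, and Mertk at 30.1 FPKM in KO cells against 34.7 in WT cells. Summed neutrophil markers were 7.80 FPKM in KO cells against 7.81 FPKM in WT cells over 8 genes, with Ly6g, Elane and Camp at 0 in both. Most of that sum came from S100a8, at 2.86 FPKM in KO cells against 1.52 in WT cells, and Mmp8, at 4.67 FPKM in KO cells against 6.13 in WT cells, which differed in opposite directions. Summed dendritic cell markers were 1.24 FPKM in KO cells against 1.38 in WT cells over 7 genes, mast cell and basophil markers 4.07 FPKM in KO cells against 5.54 in WT cells over 5, and markers of T, NK and B cells 10.7 FPKM in KO cells against 12.2 in WT cells over 9, with Cd3e, Cd8a and Ncr1 at 0. Summed stromal markers were lower, 4.11 FPKM in KO cells against 9.35 in WT cells over 7 genes, none of them at 0 in both. Their part in the differences below was not tested, and in bulk RNA fewer cells of a type and less RNA per cell cannot be told apart. Read steps in the lowest values put the WT library at 1.308 times the depth of the KO library. The depth itself is unknown, so no counting interval is given.

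The module as a whole stood at nearly the same level in both libraries. On the log2(FPKM + 1) scale, which understates changes of low genes, the median difference, KO minus WT, was 0.01 over the 35 members and -0.01 over all 10536 symbols. None of the 35 differed by 2-fold on that scale, the scale of all fold counts here, where 1.71% of all symbols did. Dusp2 alone differed by 1.5-fold, and only just, against 4.38% of all symbols. A difference of 1.2-fold was reached by 4 of 35 members (11.4%), against a background of 16.7%. These were Atf3, Ier5 and Dusp2, higher in KO (9.74% of all symbols were), and Bcl3, lower in KO (6.94% of all symbols were). By level, the 1.2-fold rule took 1 of 12 members with a mean from 1 to 10 FPKM (21.2% of all symbols at that level), 2 of 22 from 10 to 100 FPKM (11.9%) and the 1 above 100 FPKM (18.4%). Of the 35, 18 were higher in direction and 17 lower, where 47.4% of all symbols were higher. With the libraries scaled to equal sums without Lyz2 and Spp1, 10 were higher and 25 lower. That scaling moves the differences of all symbols down by up to 0.06, not those of the module alone. The direction count of all symbols under it was not taken. As deposited, 17 members (48.6%) lay within 0.1 on the log2 scale, as did 46.0% of all symbols.

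**Figure D1:**
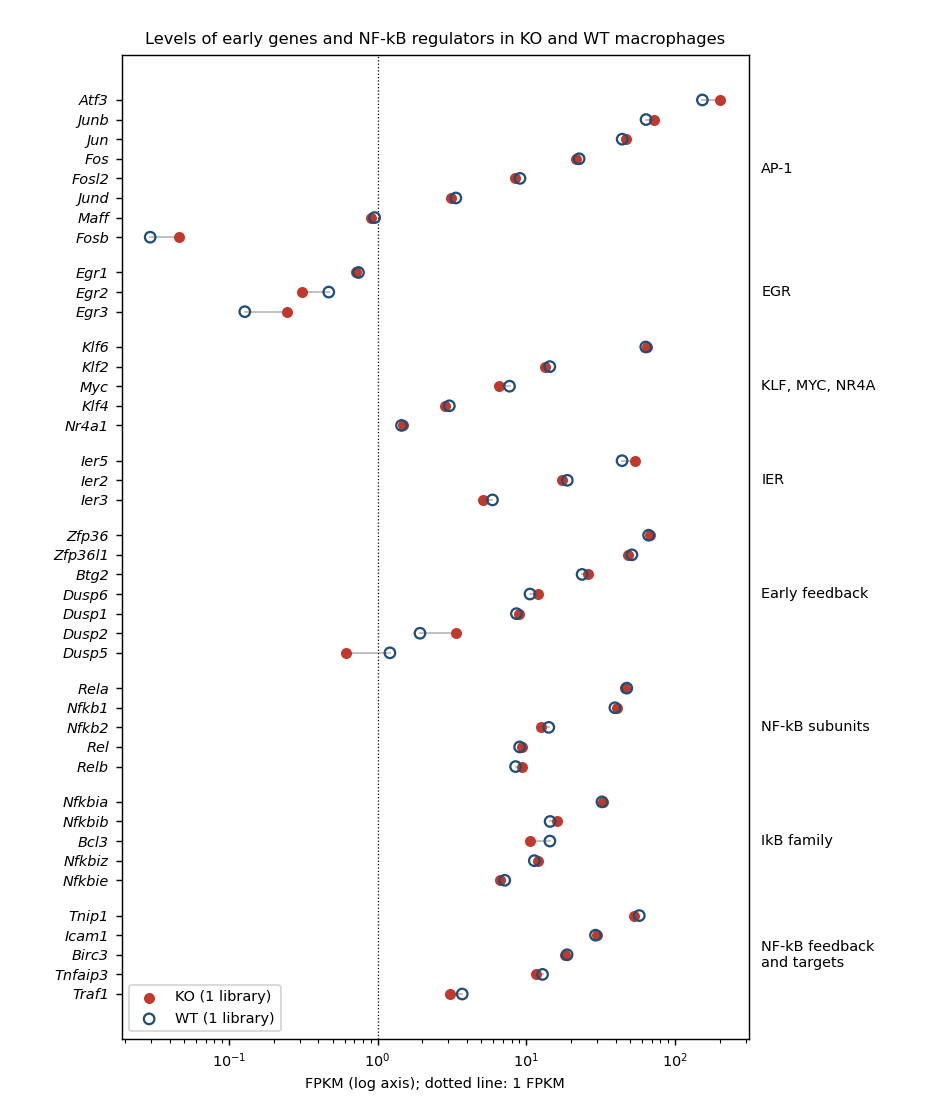
FPKM on a log axis for all 41 listed genes, grouped by role, with the KO library as filled points and the WT library as open circles, 1 library each. The points of a gene lie close together for most genes above 1 FPKM (dotted line), from Nr4a1 at 1.48 FPKM in KO cells against 1.45 in WT cells to Atf3 at 202.1 FPKM in KO cells against 153.1 in WT cells. The wider gaps are Dusp2, Dusp5 and genes far below the line.

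The serum-type and NF-kB classes overlapped, with differences from -0.22 to 0.59 in serum-type members and from -0.42 to 0.14 in NF-kB members. Serum-type genes had a median difference of 0.02 over 20 members, with 11 higher and 9 lower in direction, and of -0.03, with 7 higher and 13 lower, on the equal-sum scaling. NF-kB genes had a median of -0.03 over 15 members, with 7 higher and 8 lower, and of -0.09, with 3 higher and 12 lower, on that scaling. It lowers all symbols, so the shift is not particular to either class. The 1.2-fold count was 3 of 20 in serum-type genes (15%) and 1 of 15 in NF-kB genes (6.67%), against the same background of 16.7%. Summed over members, serum-type genes stood at 686.2 FPKM in KO cells against 618.7 FPKM in WT cells, and NF-kB genes at 312.2 FPKM in KO cells against 320.8 in WT cells. Atf3 alone made up 48.95 of the 67.5 FPKM by which the serum-type sum was higher. Without it the sums were 484.2 FPKM in KO cells against 465.6 FPKM in WT cells.

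AP-1 is a dimer of FOS, JUN and ATF proteins, and its genes were led in both libraries by Atf3, a stress-induced member that in mouse macrophages restrains inflammatory transcription. Atf3 (chromosome 1, 191170296 to 191183333, GRCm38.p6) stood at 202.1 FPKM in KO cells against 153.1 FPKM in WT cells. It was the most abundant of the 35 members and number 310 of all symbols by mean FPKM, and the KO value was 1.32 times the WT value, a log2 difference of 0.40. Junb stood at 72.0 FPKM in KO cells against 64.0 in WT cells, and Jun at 46.8 FPKM in KO cells against 44.2 in WT cells. Fos, which pairs with the JUN proteins, went the other way in direction, at 21.7 FPKM in KO cells against 22.7 in WT cells. Fosl2 stood at 8.35 FPKM in KO cells against 9.09 in WT cells. Each of these 4 was below 1.2-fold. Jund stood at 3.10 FPKM in KO cells against 3.36 in WT cells, but its symbol has a second row, at 0 in both libraries, so its value is uncertain. Of the summed AP-1 FPKM, Atf3 made up 56.9% in KO and 51.5% in WT, and Fos 6.12% in KO and 7.63% in WT. The ratio of Fos to Jun FPKM was 0.465 in KO and 0.513 in WT.

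Some classical early genes were barely present. Fosb, the FOS relative that accumulates with repeated stimulation in mouse brain, stood at 0.0464 FPKM in KO cells against 0.0296 FPKM in WT cells. The zinc finger genes Egr1 (0.712 FPKM in KO cells, 0.745 in WT cells), Egr2 (0.313 FPKM in KO cells against 0.470 in WT cells, with a second row at 0) and Egr3 (0.248 FPKM in KO cells against 0.128 in WT cells) were likewise below the filter. Maff, a small MAF protein gene, fell just outside it at 0.899 FPKM in KO cells against 0.956 in WT cells. Dusp5, which inactivates ERK in the nucleus, was also just outside, at 0.618 FPKM in KO cells against 1.21 in WT cells. In these 6 genes, all serum-type, the ratios between libraries rest on the lowest levels of the module. The member just inside the filter was Nr4a1, a nuclear receptor gene induced by many stimuli, at 1.48 FPKM in KO cells against 1.45 FPKM in WT cells. It was level between the libraries.

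The other transcription factors of the serum-type class differed by less than 1.2-fold as deposited. Klf6, a zinc finger activator, stood at 64.8 FPKM in KO cells against 63.7 in WT cells. Klf2, known for keeping myeloid cells quiet, stood at 13.3 FPKM in KO cells against 14.4 in WT cells, and Klf4 at 2.83 FPKM in KO cells against 3.04 in WT cells. Myc, which drives growth downstream of the M-CSF receptor, stood at 6.51 FPKM in KO cells against 7.72 in WT cells, a log2 difference of -0.22 and the lowest among the serum-type members. Over Klf2, Klf4, Klf6, Myc and Nr4a1 the median difference was -0.08.

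Among the IER genes, short intron-poor genes named for their early response, Ier5 was higher and the others were not. Ier5 (chromosome 1, 155096367 to 155099636) stood at 54.1 FPKM in KO cells against 44.1 FPKM in WT cells. The KO value was 1.23 times the WT value, a log2 difference of 0.29. Ier2 stood at 17.5 FPKM in KO cells against 18.9 in WT cells, and Ier3, known for promoting survival, at 5.12 FPKM in KO cells against 5.93 in WT cells. Ier3 has 3 rows, of which the other 2 are at 0. Its value is uncertain for that reason.

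The early feedback genes include phosphatases that switch off MAP kinases and proteins that destroy mRNAs. The dual-specificity phosphatase gene Dusp2 (chromosome 2, 127336159 to 127338377) stood at 3.40 FPKM in KO cells against 1.93 FPKM in WT cells. This was the largest difference of the module, 1.76 times by FPKM and 0.59 on the log2 scale, at a low level. The log2 difference was 0.78 with a pseudocount of 0.1 FPKM and 0.28 with one of 5 FPKM, higher in KO each time. Dusp1, which acts on p38 and JNK, stood at 8.95 FPKM in KO cells against 8.60 in WT cells. Dusp6, which acts on ERK in the cytoplasm, stood at 11.9 FPKM in KO cells against 10.6 in WT cells. Both lay under 1.2-fold. The 3 phosphatases past the filter were each higher in direction, unlike Dusp5 below it, but Dusp1 was at -0.0002 on the equal-sum scaling.

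The mRNA decay factors stood at high and similar levels in both libraries. Zfp36 (tristetraprolin), which binds AU-rich elements and speeds decay of cytokine mRNAs, stood at 67.8 FPKM in KO cells against 66.6 in WT cells. Its relative Zfp36l1 stood at 48.5 FPKM in KO cells against 51.4 in WT cells. The ratio of Zfp36 to Zfp36l1 was 1.40 in KO and 1.29 in WT. Btg2, an antiproliferative gene whose protein promotes removal of poly(A) tails, stood at 26.1 FPKM in KO cells against 23.8 in WT cells. All 3 lay under 1.2-fold.

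**Figure D2:**
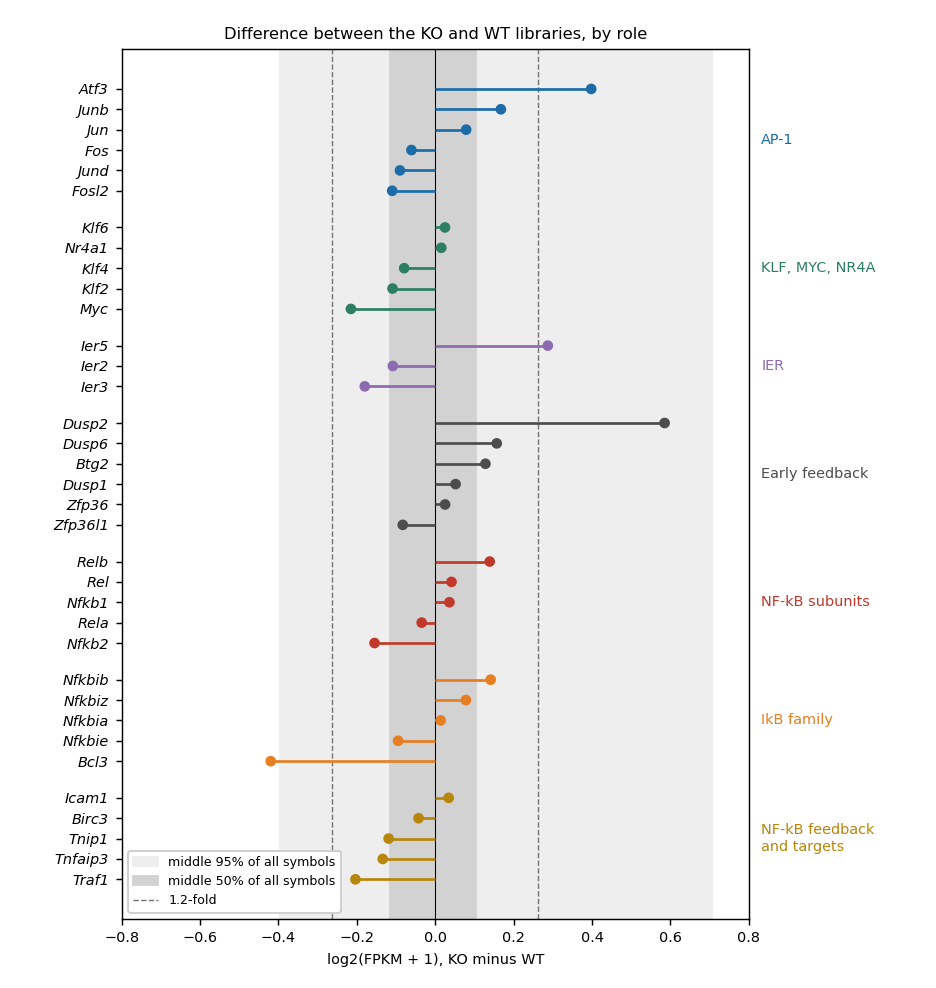
Difference of log2(FPKM + 1), KO minus WT, for the 35 members past the filter, grouped by role, with dashed lines at 1.2-fold and grey bands for the middle 50% and 95% of all 10536 symbols. Of the members, 20 lie in the narrow band. Dusp2 (0.59), Atf3 (0.40) and Ier5 (0.29) lie past the line on the KO-higher side and Bcl3 (-0.42) past it on the KO-lower side, just outside the wide band.

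The 5 NF-kB subunit genes kept nearly the same proportions. Rela, whose product carries the main activation domain, stood at 46.3 FPKM in KO cells against 47.5 in WT cells. Nfkb1, whose precursor is cut to the partner of RELA, stood at 40.5 FPKM in KO cells against 39.5 in WT cells. Rel, the c-Rel subunit, stood at 9.33 FPKM in KO cells against 9.03 in WT cells. The KO value was 97.6% of the WT value for Rela, 102.6% for Nfkb1 and 103.2% for Rel. Rela made up 39.2% of the summed subunit FPKM in KO and 40.0% in WT, and Nfkb1 34.3% in KO and 33.3% in WT. The pair of the alternative pathway differed in opposite directions. Nfkb2, whose precursor holds RELB back until it is processed, stood at 12.6 FPKM in KO cells against 14.2 in WT cells, while Relb stood at 9.44 FPKM in KO cells against 8.48 in WT cells. The ratio of Nfkb2 to Relb was 1.34 in KO and 1.67 in WT, though neither gene reached 1.2-fold by itself.

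Of the IkB family, Nfkbia was level and Bcl3 was lower. Nfkbia encodes IkB alpha, the inhibitor that NF-kB resynthesises fastest and a common readout of its activity. It stood at 32.7 FPKM in KO cells against 32.3 FPKM in WT cells. Its ratio to Rela was 0.705 in KO and 0.681 in WT. Bcl3 (chromosome 7, 19808462 to 19822824), a nuclear IkB protein that binds dimers lacking an activation domain, stood at 10.5 FPKM in KO cells against 14.4 FPKM in WT cells. The KO value was 73.0% of the WT value, a log2 difference of -0.42, the lowest of the 35 members and below the 2.5% point of all symbols at -0.40. The IkB beta gene Nfkbib stood at 16.1 FPKM in KO cells against 14.5 in WT cells. The IkB epsilon gene Nfkbie stood at 6.65 FPKM in KO cells against 7.17 in WT cells. Nfkbiz, the nuclear IkB zeta that macrophages need for secondary response genes such as Il6, stood at 12.0 FPKM in KO cells against 11.3 in WT cells. These 3 lay under 1.2-fold, in both directions.

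Feedback and target genes of NF-kB were slightly lower in KO in direction, 4 of 5 as deposited. Of all 10536 symbols, 5547 were lower. On the equal-sum scaling, which lowers all symbols, 5 of 5 were lower. None reached 1.2-fold on the log2(FPKM + 1) scale, though Traf1 did by FPKM itself. Tnfaip3 (A20), a ubiquitin-editing brake on the pathway, stood at 11.6 FPKM in KO cells against 12.9 in WT cells. Its adaptor Tnip1 stood at 53.0 FPKM in KO cells against 57.6 in WT cells. The ratio of Tnfaip3 to Tnip1 was 0.220 in KO and 0.223 in WT. Traf1, an adaptor of TNF receptor family signalling, stood at 3.09 FPKM in KO cells against 3.71 in WT cells, or 83.3% of the WT value by FPKM itself. Birc3, an inhibitor of apoptosis that acts with TRAF proteins, stood at 18.3 FPKM in KO cells against 18.8 in WT cells. The adhesion molecule gene Icam1 was the exception as deposited, at 30.0 FPKM in KO cells against 29.3 FPKM in WT cells. The group's median difference was -0.12, at the edge of the middle 50% of all symbols, which ran from -0.12 to 0.10.

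The genes upstream of both systems differed little as well. Of 25 genes of the serum response factor and MAP kinase pathways, 24 passed the filter and none reached 1.2-fold, against 16.7% of all symbols, with a median difference of -0.01. The ERK gene Mapk3 stood at 135.1 FPKM in KO cells against 157.6 in WT cells, and Elk1, a partner of serum response factor, at 6.40 FPKM in KO cells against 7.66 in WT cells. The kinase genes Braf (5.45 FPKM in KO cells against 6.50 in WT cells) and Map2k1 (38.6 FPKM in KO cells against 33.7 in WT cells) were next in size. All 28 genes upstream of NF-kB passed, with a median difference of -0.0005, and 2 reached 1.2-fold. These were Irak3, a brake on Toll-like receptor signalling, lower at 9.01 FPKM in KO cells against 12.4 in WT cells, and Rnf31, a subunit of the linear ubiquitin ligase, higher at 22.9 FPKM in KO cells against 18.7 in WT cells. Irak2 (27.7 FPKM in KO cells, 23.4 in WT cells) and Tab1 (7.33 FPKM in KO cells against 8.60 in WT cells) lay below it.

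Of 30 early genes listed outside the module, 19 passed the filter, with a median difference of 0.04. By 1.2-fold, 3 were higher and 2 lower in KO, 26.3% of the 19, where 9.74% of all symbols were higher, 6.94% lower and 16.7% either. The small MAF gene Mafk stood at 11.4 FPKM in KO cells against 8.64 in WT cells, and the survival gene Mcl1 at 342.7 FPKM in KO cells against 276.9 in WT cells. Ier5l stood at 2.11 FPKM in KO cells against 2.89 in WT cells, and Id2, an inhibitor of helix-loop-helix factors, at 61.8 FPKM in KO cells against 75.7 in WT cells. The fifth was Gadd45b, a stress and NF-kB target gene, at 27.7 FPKM in KO cells against 22.7 in WT cells, named after its value was seen to complete the count. Heat shock genes, which rise with handling stress, had a median of 0.04 over 8 genes past the filter. Hspe1 stood at 57.1 FPKM in KO cells against 46.7 in WT cells, Dnaja1 at 37.5 FPKM in KO cells against 32.6 in WT cells, Hsp90aa1 at 98.1 FPKM in KO cells against 91.8 in WT cells and Hspa8 at 876.0 FPKM in KO cells against 846.9 in WT cells. The inducible genes Hspa1a (listed at 0 in KO cells, 0.00786 FPKM in WT cells) and Hspa1b (0.0205 FPKM in KO cells, listed at 0 in WT cells) were close to 0, and each has 4 rows.

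Inflammatory genes that NF-kB is known to drive differed in both directions. Of 19 listed, 10 passed the filter, and 6 of these were higher and 1 lower in KO by 1.2-fold, where 9.74% of all symbols were higher and 6.94% lower. The median difference of the 10 was 0.38. With no filter the list's median was 0, which is the value of Cxcl3, listed at 0 in both libraries. The 9 genes that then enter have means below 1 FPKM, where the log2(FPKM + 1) scale understates changes. Bcl2a1b, a survival gene of the BCL2 family, stood at 78.6 FPKM in KO cells against 43.4 in WT cells, and the monocyte chemokine gene Ccl2 at 9.50 FPKM in KO cells against 4.86 in WT cells. Plau, the urokinase gene, stood at 60.9 FPKM in KO cells against 37.6 in WT cells, and Cd40 at 3.34 FPKM in KO cells against 1.80 in WT cells. The 1 lower gene was Vcam1, at 6.60 FPKM in KO cells against 9.31 in WT cells. A mean over both libraries can let a gene pass through the library where it is high. Il1b, 1 of the 6 higher genes, did so, at 1.27 FPKM in KO cells against 0.863 in WT cells, so the count is a description and no comparison with the NF-kB regulators rests on it. Of the 9 genes below the filter, 6 were lower in KO, 2 higher and 1 at 0 in both. Among those 9, chosen after their values were seen, Il1a stood at 0.394 FPKM in KO cells against 0.958 in WT cells, and Cxcl2 is listed at 0 in KO and stood at 0.427 FPKM in WT. The 2 higher were Tnf, at 0.0883 FPKM in KO cells against 0.0270 in WT cells, and Il12b, at 0.184 FPKM in KO cells against 0.0702 in WT cells.

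Type I interferon genes, which differed far more between these libraries, give the scale against which the module can be read. All 18 interferon genes looked at were higher in KO, with a median difference of 1.31. By 1.2-fold 17 were higher, where 9.74% of all symbols were, and by 2-fold 13, where 1.23% were. Ifi44 stood at 37.3 FPKM in KO cells against 6.76 in WT cells, Ifit2 at 160.5 FPKM in KO cells against 42.6 in WT cells, Isg15 at 182.8 FPKM in KO cells against 50.9 in WT cells and Irf7 at 214.0 FPKM in KO cells against 65.2 in WT cells. No member of the module reached the interferon median, and the module's highest difference was that of Dusp2 at 0.59.

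**Figure D3:**
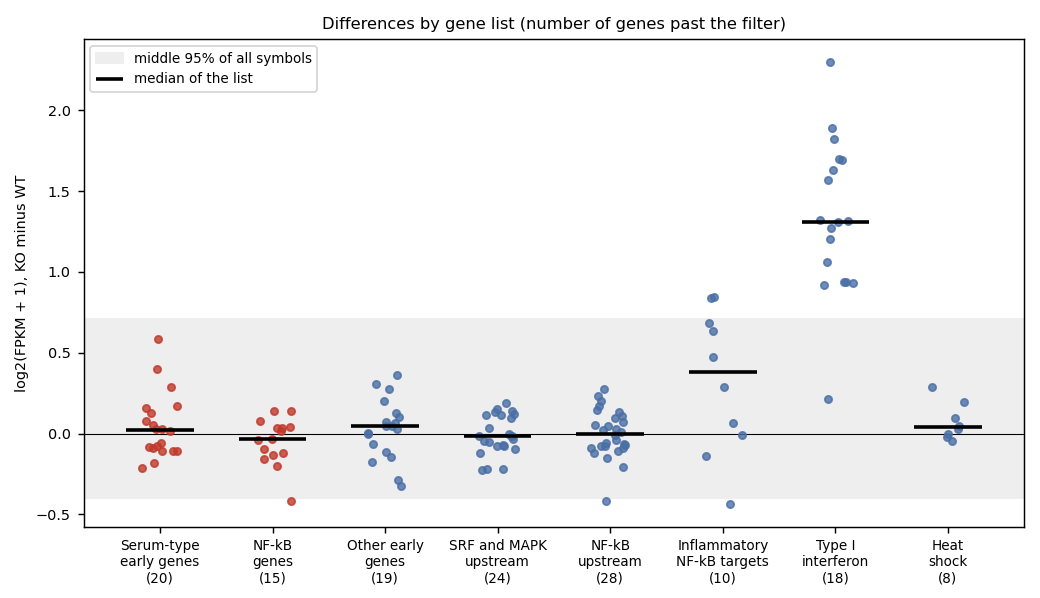
Difference of log2(FPKM + 1), KO minus WT, for each gene past the filter, by list, with the list's median as a bar, the number of genes in brackets and the middle 95% of all symbols in grey. Serum-type and NF-kB genes (red), the upstream lists, other early genes and heat shock genes centre near 0, with medians between -0.03 and 0.04. Inflammatory targets past the filter lie at 0.38 and type I interferon genes at 1.31. With no filter the inflammatory median is 0, the value of a gene at 0 in both libraries.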

How the data were processed

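RNA was measured by sequencing in 1 KO and 1 WT library of mouse bone marrow-derived macrophages. The values are the authors' deposited FPKM, 1 table with symbols in 42396 rows. Per the submitters' processing notes, RSEM, DESeq2 and build mm10 were used, with no role or version named. Which aligner, annotation or filter was applied was not stated in these sources. Of the table's 4 value columns, 2 match no labelled sample and were not used. Where a symbol has several rows the highest was kept, which left 40017 symbols. FPKM is relative: a very abundant transcript that differs, such as Lyz2, shifts all others.

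Differences were taken as log2(FPKM + 1), KO minus WT, over symbols with a mean of at least 1 FPKM, and counted past 1.2-fold and 2-fold, with no test. The relative depth, taking the most common ratio as equal reads, was read from 2974 symbols below 0.3 FPKM in all: at a WT to KO ratio of 1.308, 78.6% of value pairs were ratios of whole numbers up to 10 within 0.1%, and 10.2% at a ratio 5% off. Python 3.11.15 with pandas 2.3.3 was used, and the counting step was tested on simulated data. Gene structure came from GENCODE M21 (principal transcript) and promoters and gene positions from RefSeq. The genes named are all members, and of other lists up to 4 with the largest differences. Named besides these were cell type markers such as Csf1r and Mertk, and Gadd45b, Il1b, Ccl4, Vcam1, Il1a, Cxcl2, Cxcl3, Tnf, Il12b, Hspa1a and Hspa1b. Members and lists were chosen with earlier results of these data known. Alternatives were other pseudocounts, scalings, filters, folds, summed rows and means.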

Additional observations from a re-analysis of the deposited data

How the results depend on the processing

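With 1 library per genotype, no library could be left out. No paired analysis was possible because each genotype has 1 library. Of 308 member differences recomputed, 306 moved by less than 0.1 on the log2 scale and none of the 4 past 1.2-fold changed sign. The other 2 were those of Dusp2 with pseudocounts of 0.1 and 5 FPKM (0.78 and 0.28). Only the pseudocounts could have moved a member by that much, so the count says little of the other settings. Filters and row choices left each member's own difference as it was, and the scalings and centring shift every symbol by less than 0.1. With a fold rule of 1.5 in place of 2, 1 member was counted in place of 0. The count past 1.2-fold was 3 with a mean of at least 5 FPKM and 5 with no filter, and 4 in the other settings run. Those 4 were not always the same genes. On the equal-sum scaling Ier5 fell below 1.2-fold, at 0.23, and Myc passed it, at -0.27. The inflammatory target median was 0.50 and 0.20 with pseudocounts of 0.1 and 5 FPKM, 0.27 with a mean of at least 5 FPKM and 0 with no filter. The median of 0 is the value of Cxcl3, at 0 in both libraries. The cause of the other shifts was not tested beyond which genes enter. The serum-type median was -0.03 with equal sums without Lyz2 and Spp1 and -0.01 with no filter. The NF-kB median stayed between -0.09 and -0.01. Leaving out symbols with several rows, chosen after seeing the data, gave 0.03 and -0.03. Unknown depth limits what can be said of genes below 1 FPKM.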
